A study of Mus musculus with 16 samples.

Results

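HNRNP and SR genes encode the main RNA-binding regulators of pre-mRNA splicing, and their mRNA was examined in mice homozygous for the Ppargc1a allele labelled uORF-TAA. Members were all genes whose symbol begins with Hnrnp, Hnrp, Srsf or Sfrs in the deposited tables, which gave 20 HNRNP and 11 SR genes, 31 of the 18657 genes listed in either table. No symbol with the older Hnrp or Sfrs spelling occurred, and all 31 were present in both tables. Ppargc1a encodes PGC-1alpha, a transcriptional coactivator of mitochondrial and thermogenic genes, and uORF stands for upstream open reading frame. Quadriceps muscle and brown adipose tissue came from male C57BL/6 mice of 10 weeks, housed at room temperature. The uORF-TAA homozygous mice were compared with wild-type littermates, with 4 libraries for each genotype and tissue, 16 altogether. Whether a mouse gave both tissues is not in the labels, nor is the number of mice behind a library. The p-values therefore set differences against the modelled spread between these libraries.

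Heterogeneous nuclear ribonucleoproteins coat nascent transcripts and often repress splice sites, and many also act in mRNA export, stability and translation. SR proteins carry RNA recognition motifs and a domain rich in arginine and serine, and they commonly bind exonic enhancers and promote exon inclusion. Many genes of both families limit their own expression through splicing of exons that bring a premature stop codon into the mRNA, which is then removed by nonsense-mediated decay. PGC-1alpha itself has a C-terminal stretch rich in arginine and serine with an RNA recognition motif, and it has been linked to the processing of its target transcripts.

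The tables hold a comparison of genotypes for each tissue, with a mean over all 8 libraries, a log2 fold change and its standard error (SE), so no value of a single library can be shown. Positive fold changes mean higher in uORF-TAA than in wild type. This reading takes the genotype that each table names first as the numerator, and no header states it. The quadriceps table names the mutant first and the brown fat table the wild type, so every brown fat fold change printed here has the opposite sign to the deposited one. Srsf10, for example, is deposited at 0.11 in brown fat and given here as -0.11. If the reading fails for a tissue, every direction in that tissue turns over. The fold changes behave as shrunken toward 0, so differences may be understated. The estimated depth ran from 11.4 to 31.8 M counts per library (M, mega) in quadriceps and from 11.0 to 17.8 M in brown fat. Tissue labels were checked against markers. Myh4, the fast IIB myosin, took 101823 CPM (counts per M of the table's summed means) in quadriceps, where Ucp1, the thermogenic uncoupling protein, had 0.318. In brown fat Ucp1 had 3709 CPM and Myh4 3330, so muscle mRNA was also present there. Neither gene's share tells fewer cells of a type from less RNA per cell, which holds for every level below. Ppargc1a itself did not pass the test, its log2 fold change being 0.06 in quadriceps and 0.0016 in brown fat (sign turned) in the authors' deposited table.

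Several members share stretches with other annotated transcripts, some of them near-identical pseudogene copies, and these bear on how their reads can be assigned. Hnrnpa1, the member with the largest genotype difference described below, is the case shown here. The sequences, from GENCODE M21 transcripts (GRCm38), are a 75-base stretch of its coding sequence, equal to the read length, and the same stretch of a processed pseudogene, with capitals at the 2 positions where they differ. A further pseudogene, Gm10052, holds the Hnrnpa1 stretch without any difference.
Hnrnpa1: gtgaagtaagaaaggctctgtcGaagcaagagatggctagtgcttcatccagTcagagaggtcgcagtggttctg
Gm5643: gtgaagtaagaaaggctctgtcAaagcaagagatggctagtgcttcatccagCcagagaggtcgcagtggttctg
Of the 1844 windows of 75 bases in an Hnrnpa1 transcript, 44.4% occurred exactly in an annotated transcript of another gene, 13 of these genes being pseudogenes. The share was 90.3% for Hnrnpa3, with 36 pseudogenes, and 65.0% for Hnrnpf, with 6. Among SR genes it was highest for Srsf4 at 63.8%, all of it shared with the transcript Gm12992, and for Srsf2 at 32.9%, shared with Mettl23 and 1 other gene. Hnrnpa0, Hnrnpa2b1, Hnrnpll, Hnrnpu, Hnrnpul1, Srsf6, Srsf7, Srsf9, Srsf11 and Srsf12 shared no window. Gm5643 had its own entry, with a mean normalized count of 0.761 in quadriceps and 0.109 in brown fat in the authors' deposited table. Srsf4, Srsf2, Hnrnpm and Hnrnpab shared no window with a pseudogene. Whether the genes they share windows with are copies or overlap them in the genome was not examined. How reads with several matches, or from overlapping genes, were counted is unknown here. The values of members with shared windows are uncertain in that respect. This concerns Hnrnpa1, Hnrnpa3, Hnrnpf and Srsf4 most. Lower shares include Srsf2, Hnrnpk (32.0%), Hnrnpm (28.4%), Hnrnpab (25.9%), Srsf3 (25.2%) and Srsf5 (22.6%). The part of read counting in their fold changes and levels was not tested.

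The first question was whether genotype changed these genes in quadriceps. No HNRNP member passed the adjusted threshold of 0.05 in the authors' deposited table, against 0% of the 17521 genes tested. At an unadjusted p under 0.05 there were 2 of 20 HNRNP members, both lower in uORF-TAA, against 2% of all genes in either direction and 1.06% lower. Restricted to genes whose mean reached 50, as it did for all 20 HNRNP members, the share was 2.7% in either direction and 1.51% lower. The HNRNP median log2 fold change was -0.05, with 13 of 20 members below 0, beside a median of 0.0024 and 48.3% below 0 over all genes.

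Hnrnpa1, an abundant shuttling hnRNP that represses splice sites and packages mRNA, had the largest difference of the 31 members in either tissue. In quadriceps the authors' deposited table gave it a mean normalized count of 377, a log2 fold change of -0.40 ± 0.09 (SE) and, by the DESeq2 Wald test, an adjusted p of 0.133. Its p-value before adjustment, 2.69e-05, ranked 3 in the table. The fold was 0.759, with a 95% interval from 0.667 to 0.863 on the deposited, shrunken scale. The difference was large against its SE (Wald statistic -4.20), and it did not pass once adjusted over all genes. With the adjustment limited to genes whose mean reached 10 or 50, its adjusted p was 0.0923 and 0.0933.

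Hnrnpm, an hnRNP that binds GU-rich RNA, was the other HNRNP gene with an unadjusted p under 0.05 in quadriceps. The authors' deposited table gave it a mean of 1911 and a log2 fold change of -0.21 ± 0.10 (SE), at an unadjusted p of 0.0323 (1.00 when adjusted). Its transcript shared 28.4% of windows, all with the gene March2. Hnrnpul2, which belongs to the hnRNP U family, and Hnrnph3, a G-rich RNA binder of the hnRNP H and F group, came next by p. Their log2 fold changes in the authors' deposited table were -0.13 ± 0.10 (SE) and -0.17 ± 0.13 (SE), and both 95% intervals included 0.

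The remaining 16 HNRNP genes of quadriceps lay between -0.13 and 0.09, with 9 of them below 0. Closest to Hnrnpa1 in the protein family are Hnrnpa2b1, Hnrnpa3 and Hnrnpa0. The authors' deposited table placed Hnrnpa2b1 at -0.06 ± 0.08 (SE), Hnrnpa3 at -0.09 ± 0.12 (SE) and Hnrnpa0 at 0.09 ± 0.11 (SE). These 3 values are smaller than that of Hnrnpa1, and no test of a difference between genes was made. Hnrnpc, which binds uridine tracts, was at -0.08, Hnrnpab at -0.05 and Hnrnpdl at -0.03 in the authors' deposited table. Hnrnph1, of the same group as Hnrnph3, stood at -0.13 there, Hnrnpf at -0.06 and Hnrnph2 at 0.03. The poly(C) binder Hnrnpk was at 0.09 and the CA-repeat binders Hnrnpl and Hnrnpll were at 0.03 and 0.05 in the authors' deposited table. Hnrnpu, a scaffold of nuclear RNA, was at -0.02 there, Hnrnpul1 at -0.09, Hnrnpr at 0.08 and Hnrnpd, an AU-rich element binder, at 0.0061.

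SR genes of quadriceps gave no member with an adjusted or an unadjusted p under 0.05 (0 of 11 in the DESeq2 Wald test of the authors' deposited table). At the unadjusted threshold the share was 2% of all genes and 2.7% of those with a mean of at least 50, so 0 of 11 is near it. Of the 10 SR genes with a mean of at least 50, 9 were below 0, beside 49.1% of all genes at such means, and their median log2 fold change was -0.06. The smallest p belonged to Srsf11, an SR-related protein, at a log2 fold change of -0.18 ± 0.13 (SE) (unadjusted p = 0.157) in the authors' deposited table. Srsf9 followed at -0.15 ± 0.13 (SE) and Srsf4 at -0.11 ± 0.10 (SE) there. Srsf1, the founding SR protein, was at -0.06, Srsf5 at -0.07, Srsf6 at -0.07, Srsf7 at -0.06, Srsf3 at -0.05 and Srsf10 at -0.04 in the authors' deposited table. Only Srsf2 and Srsf12 were above 0, at 0.0013 and 0.01 there. Srsf12 was near the limit of detection, with a mean normalized count of 0.153, and its value carries no information on a difference. The smooth muscle and pericyte markers Myh11, Acta2 and Tagln, but not Rgs5, were lower at an unadjusted p under 0.05 in the same table, and the 4 had a summed level of 149.8 CPM. All 4 nerve glia markers were below 0 as well, at a summed level of 63.1. Other markers leaned the other way, with 7 of 8 brown adipocyte, 4 of 5 adipocyte and 3 of 4 macrophage markers above 0. The blood marker Alas2 was at 0.02. Of the skeletal muscle markers 6 of 10 were below 0, and of the endothelial markers 2 of 3. Their part in the values of the splicing genes was not tested.

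**Figure D1:**
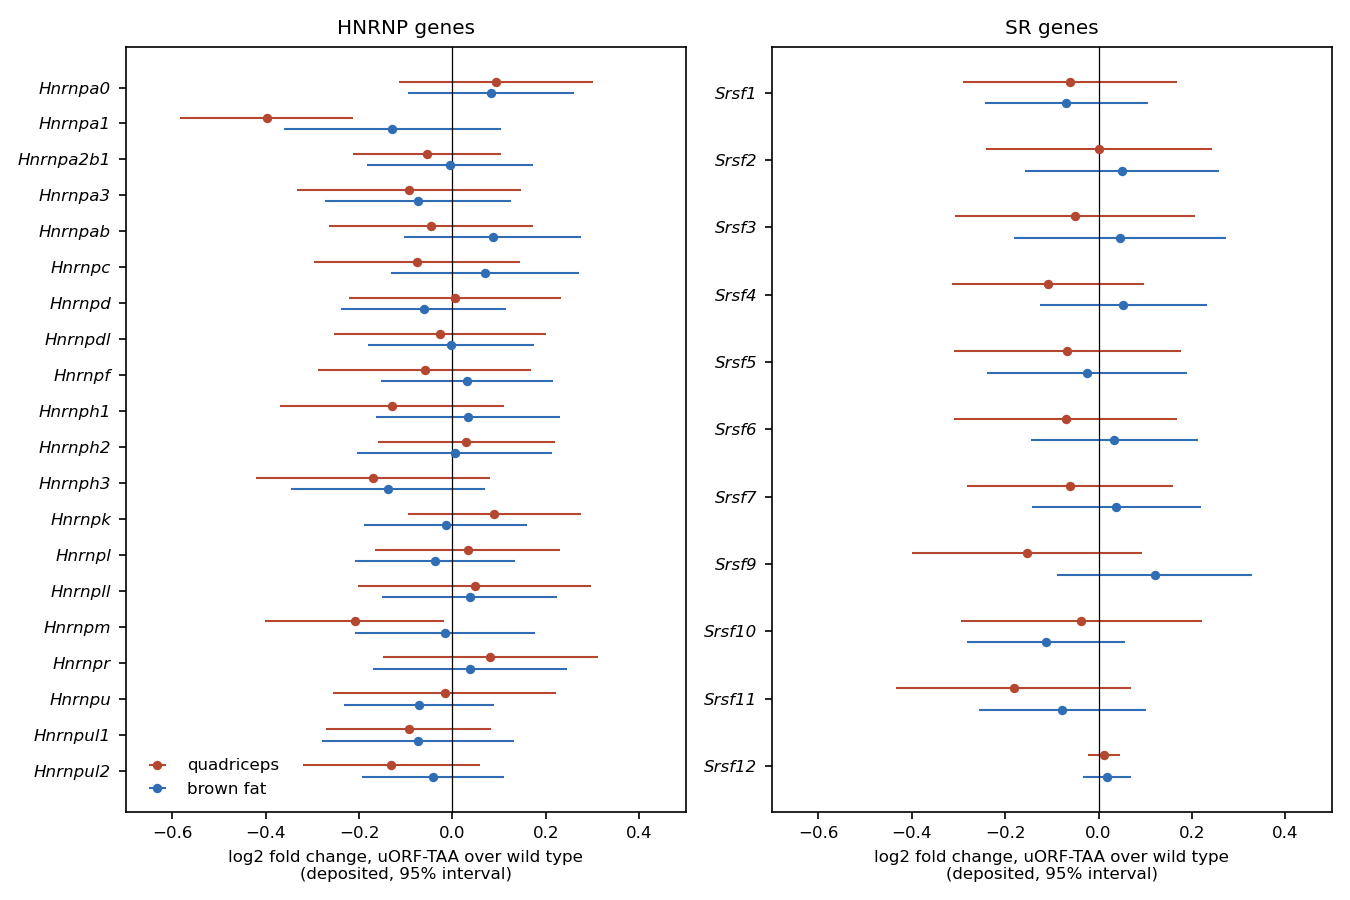
Log2 fold change of uORF-TAA over wild type (x axis) for each HNRNP gene (left) and SR gene (right) in quadriceps (red) and brown fat (blue). Points are the deposited estimates, with the sign turned in brown fat, and bars their 95% intervals. Hnrnpa1 in quadriceps lies farthest from 0, at -0.40, and its interval and that of Hnrnpm, also in quadriceps, are the only ones that leave out 0.

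Brown fat was then examined in the same way. No HNRNP or SR member passed that adjusted threshold in the authors' deposited table, where 0.0863% of 9272 genes with an adjusted p were called. None of the 31 had an unadjusted p under 0.05 by the same DESeq2 Wald test, against 2.07% of all genes and 2.82% of genes with a mean of at least 50. HNRNP genes had a median log2 fold change of -0.0099, with 12 of 20 below 0. SR genes had a median of 0.03, with 4 of 11 below 0. Over all genes of brown fat the median was 0.0015 and 48.8% were below 0.

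Hnrnph3 had the smallest p of the HNRNP genes in brown fat, at a log2 fold change of -0.14 ± 0.11 (SE) (unadjusted p = 0.196) in the authors' deposited table after its sign was turned. Hnrnpa1 came next there at -0.13 ± 0.12 (SE) and an unadjusted p of 0.280, on a mean normalized count of 293. Its fold in brown fat had a 95% interval from 0.778 to 1.08, which includes 1 and overlaps the quadriceps interval. Hnrnpa0 and Hnrnpab followed with 0.08 and 0.09 in the authors' deposited table, signs turned. Hnrnpm, at -0.02 ± 0.10 (SE), was close to 0 in this tissue.

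Among SR genes of brown fat, Srsf10, an SR-like protein that acts as a repressor when dephosphorylated, had the smallest p. With the sign of the authors' deposited table turned, it was at -0.11 ± 0.09 (SE) with an unadjusted p of 0.192. Srsf9 was at 0.12 ± 0.11 (SE) there, which is opposite in sign to its quadriceps value. Srsf11 stood at -0.08 and Srsf1 at -0.07 in the authors' deposited table, signs turned. The 6 SR genes above 0 with a mean of at least 50 were Srsf2, Srsf3, Srsf4, Srsf6, Srsf7 and Srsf9, between 0.03 and 0.12. Srsf12 had a mean normalized count of 0.538 and no adjusted p. All 4 nerve glia markers were below 0 in brown fat too, with a median of -0.17, 1 unadjusted p under 0.05 and a summed level of 264 CPM. The 10 skeletal muscle markers were also all below 0, between -0.03 and -0.0023. Other markers went the opposite way in brown fat. All 8 brown adipocyte markers were above 0, 1 of them at an unadjusted p under 0.05 in the Wald test. All 5 adipocyte and all 3 endothelial markers were above 0 too, as were 3 of the 4 smooth muscle and pericyte markers. Of the 4 macrophage markers 2 were above 0 and 2 below. The blood marker Alas2 was at 0.34, higher at an unadjusted p under 0.05 in the Wald test. Their part in the values of the splicing genes was not tested.

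The 95% intervals were also set against a 1.5-fold change. In each tissue all 20 HNRNP genes and the 10 SR genes with a mean of at least 50 had a 95% interval, on the shrunken scale, that stayed within a 1.5-fold change in either direction. The lowest bound was a fold of 0.667, for Hnrnpa1 in quadriceps, and the highest 1.26, for Srsf9 in brown fat. SEs of these genes had a median of 0.112 for HNRNP and 0.124 for SR genes in quadriceps and of 0.096 and 0.092 in brown fat. These compare with 0.122 and 0.112 over all genes with a mean of at least 50. The highest SE of any gene was 0.135 in quadriceps and 0.127 in brown fat. With SEs this small, any gene with a log2 fold change near 0 would stay within the 1.5-fold bound. The share of all genes that do so was not computed, so the counts show nothing particular to these members. Even Srsf12, near the limit of detection, had a fold interval from 0.985 to 1.03 in quadriceps. Because shrinkage narrows such intervals, they do not exclude larger changes on an unshrunken scale.

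The tissues were next set against each other, gene by gene. Their log2 fold changes were subtracted, and the difference was tested with a two-sided normal p, adjusted over the 16844 genes with a p-value in both tables. No member differed (0 of 31 at an adjusted p of 0.05, against 0% of all genes, and 0 of 31 at an unadjusted p under 0.05, against 1.16%). Hnrnpa1 had the smallest p of the members, with a difference (quadriceps less brown fat) of -0.27 ± 0.15 (SE), a 95% interval from -0.57 to 0.03 and an unadjusted p of 0.0766. Were the brown fat signs left as deposited, its difference would be -0.53 ± 0.15 (SE), at an unadjusted p of 0.000541 and an adjusted p of 0.337. Under that reading it was the 1 member of 31 with an unadjusted p under 0.05, against 3.08% of all genes, and 6 genes, none of them a member, differed at an adjusted p of 0.05 (0.0356%). In neither reading is the quadriceps value of Hnrnpa1 shown to be particular to muscle. Srsf9 had a difference of -0.27 ± 0.16 (SE) with an unadjusted p of 0.0961, Hnrnpm -0.19 ± 0.14 (SE) and Srsf4 -0.16 ± 0.14 (SE). All adjusted values of these 4 were 1.00.

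Direction was shared by part of the family. Of HNRNP genes 9 of 20 were lower in both tissues (45%), 4 were higher in both and 7 had opposite signs. Of SR genes 4 of 11 were lower in both (36.4%), namely Srsf1, Srsf5, Srsf10 and Srsf11, and 5 were lower in quadriceps and higher in brown fat. Over the 9275 genes whose mean reached 50 in both tables, 27.2% were lower in both. Reading a single table the other way would turn these counts over, and most of the values in them lie within their own intervals of 0.

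**Figure D2:**
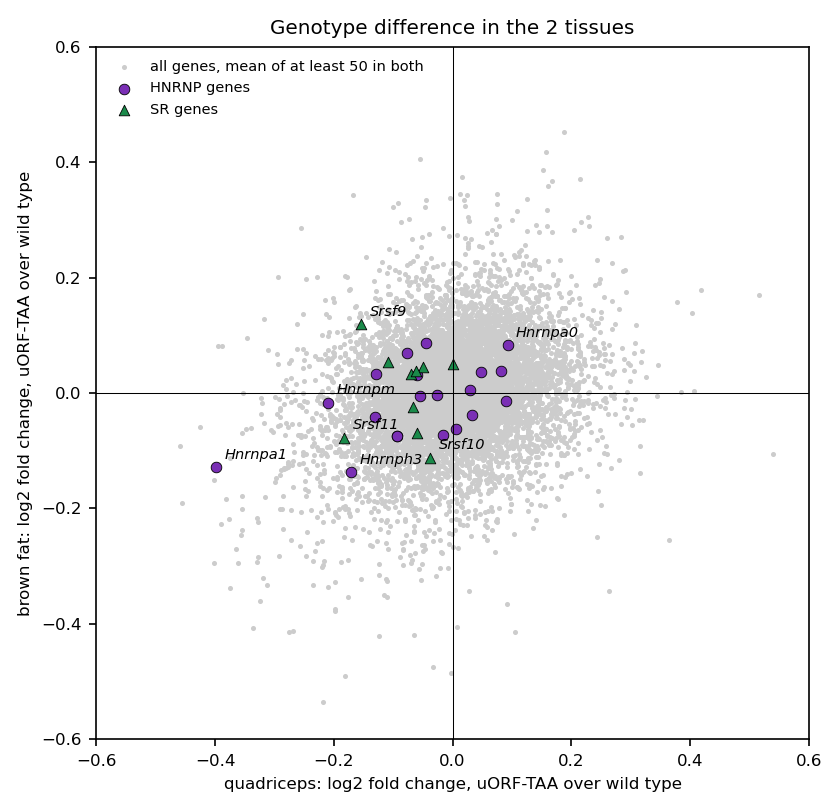
Log2 fold change of uORF-TAA over wild type in quadriceps (x axis) and brown fat (y axis) for HNRNP genes (purple circles) and SR genes with a mean of at least 50 (green triangles), over all genes whose mean reached 50 in both tables (grey). Hnrnpa1 at -0.40 and -0.13 stands apart from the other members along the x axis, and the rest lie within the grey cloud near 0.

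Levels of the genes were described from the deposited means, without a test because the tables were normalized separately. To compare genes with one another, each mean was expressed in CPM and divided by the median length in kb of the gene's protein-coding transcripts that are paired with RefSeq in GENCODE M21. On this scale Hnrnpa2b1, an exporter and stabilizer of mRNA as well as a splicing regulator, was the highest HNRNP gene in both tissues, at 226 CPM per kb in quadriceps and 344 in brown fat. Hnrnpab followed at 73.0 and 134. Hnrnph1 with 55.9 and Hnrnpk with 52.7 came next in quadriceps, and Hnrnpl with 116 and Hnrnpk with 96.1 in brown fat. Hnrnpa1 was among the lowest, at 9.81 and 12.5, the 18th and the 19th of the 20, and it is one of the genes with many shared windows. Hnrnpf at 7.63 in quadriceps and Hnrnpa3 at 10.2 were low as well. Hnrnpr was last at 2.19 and 3.91, but its paired transcripts have a median length of 12.0 kb, against 2.54 kb over all of its coding transcripts. In CPM, without the length, its level was 26.2 in quadriceps and 46.9 in brown fat.

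Srsf5, first described as an insulin-induced gene of liver cells, was the highest SR gene on the per-length scale in both tissues, at 111 CPM per kb in quadriceps and 172 in brown fat. Srsf2, which also binds exonic enhancers, stood at 33.3 and 93.7, and Srsf7 at 38.1 and 73.3. Srsf3, the smallest SR protein and a partner of the export receptor NXF1, was at 9.71 and 27.4. Srsf12 had 0.00247 CPM per kb in quadriceps and 0.0143 in brown fat. With the length taken over all coding transcripts of a gene, the first place in each family was kept by Hnrnpa2b1 and Srsf5, while Srsf7 moved from 2 to 6 and Hnrnpm from 12 to 6 in the quadriceps order.

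**Figure D3:**
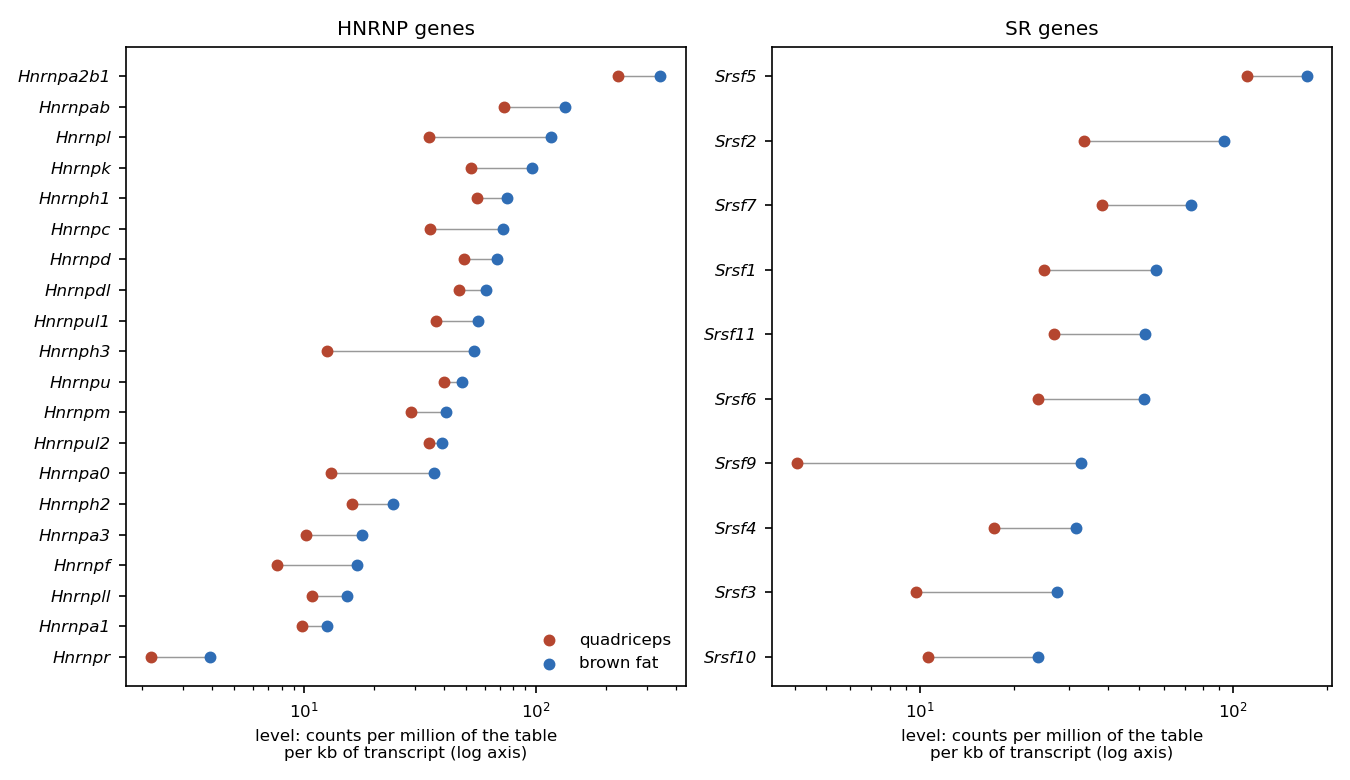
Level of each HNRNP gene (left) and SR gene with a mean of at least 50 (right) in quadriceps (red) and brown fat (blue), in CPM per kb of transcript, on a log axis. Grey lines join the tissues for a gene, and the longest lines belong to Srsf9, Hnrnph3 and Hnrnpl.

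Between tissues each gene was compared with itself, as its share in brown fat over that in quadriceps. The 50 genes of highest mean took 45.1% of counts in quadriceps and 20.9% in brown fat. The median gene whose mean reached 50 in both tables had a log2 ratio of 0.91, or 0.38 with those 50 genes left out, and ratios are given here relative to it. SR genes had a median log2 ratio of 0.26 relative to that gene, with 9 of 11 above it, Srsf12 near the detection limit among them. HNRNP genes had -0.31, with 5 of 20 above it, a sign that flips to 0.60 in shares of the whole table and to 0.07 when the 50 highest genes are left out. In the same terms SR genes stood at 1.17 and 0.64, the scalings differing by a constant that leaves the distance between genes as it is.

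Srsf9, which recognizes purine-rich elements much as its close relative Srsf1 does, differed most between tissues among the well-expressed members. Its mean normalized count was 99.1 in quadriceps and 487 in brown fat in the authors' deposited table. Its ratio of shares was 4.29 times that of the median gene and at or above that of 93.2% of genes. Hnrnph3 followed with 2.28 times, on means of 580 and 1516, and Hnrnpl with 1.79 times, on 1559 and 3194. Srsf3 and Srsf2 each had 1.5 times, and Hnrnpa0 had 1.48. At the other end were Hnrnpul2 with 0.605 times, Hnrnpu with 0.638, Hnrnpa1 with 0.678 and, for SR genes, Srsf5 with 0.826, Srsf4 with 0.969 and Srsf7 with 1.02. Related members could part here, as Srsf9 did against Srsf1 with 1.22. In the hnRNP H and F group Hnrnph3 stood above Hnrnph1 with 0.713, Hnrnph2 with 0.804 and Hnrnpf with 1.18.

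Other genes of the splicing and mRNA pathway were then read from 7 lists grouped by function. The lists were chosen with earlier results of these data known, so their counts below 0 are descriptions and give no independent support. In either tissue 0 members of any of these lists passed the deposited adjusted p of 0.05. Of the SR and SR-related proteins under other symbols, 15 of 17 were below 0 in quadriceps and 13 of 18 in brown fat, beside 48.3% and 48.8% of all genes. The nerve glia markers were below 0 in both tissues as well, as given above. Of these SR and SR-related proteins, 1 had an unadjusted p under 0.05 in the Wald test in quadriceps and 2 in brown fat, all lower. Rsrp1, a small protein rich in arginine and serine, was the member of smallest p in both tissues. The authors' deposited table gave Rsrp1 a log2 fold change of -0.38 ± 0.10 (SE) in quadriceps on a mean of 5367, with an adjusted p of 0.490. In brown fat, with the sign turned, it was at -0.34 ± 0.11 (SE) on a mean of 6556 in the authors' deposited table, with an adjusted p of 0.466. Srrm2, a scaffold of nuclear speckles, was at -0.19 in quadriceps and Rsrc2 at -0.17 in brown fat (sign turned) in the authors' deposited table. The hnRNP proteins that carry other symbols, such as the Pcbp and Ptbp genes, had no unadjusted p under 0.05 in the Wald test of either tissue, with medians of 0.0049 in quadriceps and 0.0059 in brown fat. The smallest p-values in that list belonged to Tardbp and Pcbp2 in quadriceps, at -0.15 and -0.08 in the authors' deposited table. In brown fat they belonged to Pcbp4 and Rbmx, at 0.21 and 0.07 there with the sign turned.

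SR proteins depend on phosphorylation, and their kinases gave 1 gene with an unadjusted p under 0.05 per tissue, among 14 kinases, phosphatases and importers. These were Clk1 in quadriceps, at -0.28 ± 0.13 (SE), and Clk4 in brown fat, at -0.20 ± 0.10 (SE) with the sign turned, both lower and both at 1.00 once adjusted in the authors' deposited table. Srpk2 was at 0.21 in quadriceps there and Prpf4b at -0.15 in brown fat, sign turned. The 38 core spliceosome genes had 1 with an unadjusted p under 0.05 in quadriceps, Snrnp70 of the U1 particle, at -0.30 ± 0.10 (SE) in the authors' deposited table, and 0 in brown fat by the same DESeq2 Wald test. Sf3b2 of the U2 particle came next in quadriceps, at -0.13 there. Sf1 and U2af2, which recognize the branch point and the polypyrimidine tract, had the smallest p in brown fat, at -0.12 and -0.10 with the sign turned. The median of this list was -0.03 in quadriceps and -0.01 in brown fat.

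Export factors and decay factors act on the same transcripts after splicing. Nxf1, the main mRNA export receptor, was at -0.29 ± 0.08 (SE) in quadriceps (adjusted p = 0.490) in the authors' deposited table, and it was the only one of 17 export and exon junction genes with an unadjusted p under 0.05 in either tissue. Casc3, a core protein of the exon junction complex, was at -0.18 in quadriceps there, and the export complex genes Thoc3 and Thoc6 were at 0.09 and 0.13 in brown fat, signs turned. Of the 17 export and exon junction genes, 12 were below 0 in quadriceps, while in brown fat 13 were above 0. The 10 nonsense-mediated decay genes were below 0 in 9 cases in quadriceps and in 8 in brown fat, beside 48.3% and 48.8% of all genes. Smg6, the endonuclease of that pathway, was at -0.14 and Upf3a at -0.15 in quadriceps in the authors' deposited table. In brown fat Smg1, its kinase, and Upf3b were both at -0.19 there after the sign was turned, with unadjusted p-values of 0.0429 and 0.0471. The tissue splicing regulators, among them the Rbfox, Mbnl and Celf genes, had a median of 0.04 in quadriceps and -0.0039 in brown fat. Celf2 at -0.17 in brown fat was their one member with an unadjusted p under 0.05 in the authors' deposited table (sign turned), and Khdrbs3 followed at 0.20. Tia1 and Mbnl3 had the smallest p of this list in quadriceps, at 0.16 and 0.15 there. All values at an unadjusted p stand beside the background of 2% of genes in quadriceps and 2.07% in brown fat.

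**Figure D4:**
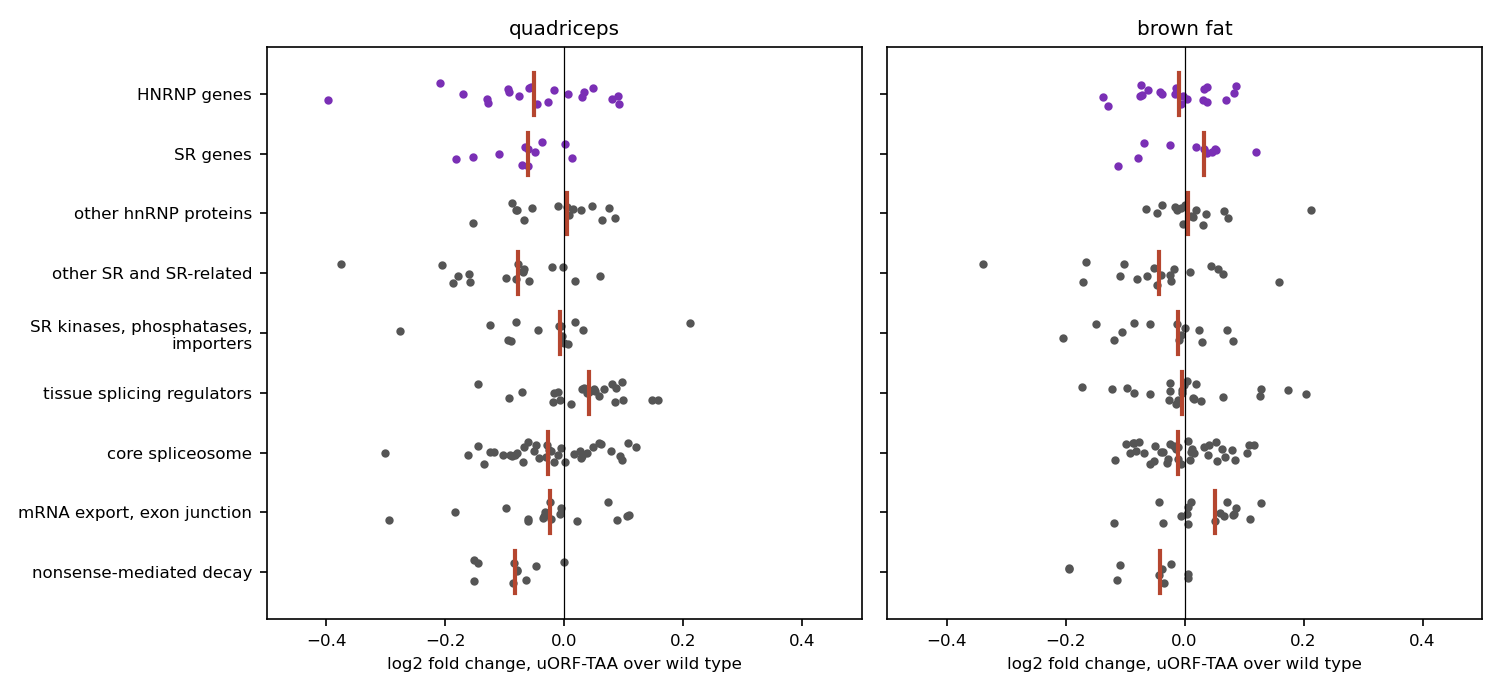
Log2 fold change of uORF-TAA over wild type (x axis) for HNRNP and SR genes (purple) and 7 further lists of splicing and mRNA genes (grey) in quadriceps (left) and brown fat (right). Each point is a gene, spread vertically at random for display, and red bars are medians. In quadriceps every list except the tissue splicing regulators and the other hnRNP proteins has most of its genes below 0. The shares are largest for SR genes, SR-related proteins and decay factors (81.8%, 88.2% and 90%). The medians of all lists stay within 0.10 of 0.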

How the data were processed

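Quadriceps and brown fat mRNA was sequenced from one end in reads of 75 bases, per the labels' protocols, and the submitters' processing notes name STAR 2.5.1b, DESeq2 1.10.1, DESeq and the build mm9 without giving their roles. No source used here names the annotation or the read counter.

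The authors deposited a table of their comparison per tissue, with no values per library. Per the file headers, the columns are a mean normalized count (treated as a signal), a log2 fold change and its SE (log2), the Wald statistic (a score, the fold change over its SE), the p-value and the adjusted p-value. The last 3 were recomputed and matched to rounding. In brown fat 9272 of 17973 p-values carry an adjusted p, all at a mean of at least 106. SEs fell to a median of 0.0223 and 0.0181 in genes with a mean under 1, from which shrinkage is inferred.

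The brown fat table names wild type first, and the sign of its log2 fold changes was turned so that both tissues read uORF-TAA over wild type. The deposited test, called at an adjusted p of 0.05, was the main test. The tissue difference used the deposited log2 fold changes and SEs and treats the tissues as independent. Depth came from size factors, read from the levels that genes counted once in all libraries share. Symbols of all 31 members matched GENCODE M21 (GRCm38). Because that build differs from mm9, no coordinates are given. Windows of 75 bases came from the RefSeq-paired coding transcript nearest the gene's median length and were matched on both strands to annotated transcripts only. Procedures were tested on simulated statistics, drawn as independent normal values. Of genes shifted by 5 SE, 94% were recovered in the simulation of 17521 quadriceps genes and 95% in that of 17973 brown fat genes. These rates check the calling code and do not give the power of the deposited tests. Python 3.11.15, scipy 1.17.1 and pandas 2.3.3 were used.

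The members and lists were chosen with earlier results of these data known. Genes were named by a rule: members with an unadjusted p under 0.05, the 4 of smallest p per family and tissue, those of extreme mean or extreme level ratio, the 2 of smallest p for the tissue difference, and the 2 of smallest p in each other list. Further members are named to account for all of them. Genes of the other lists outside this rule enter counts and medians only, and one of them is not reported here. Some choices were made after values had been seen. Levels per kb use the median length of a gene's RefSeq-paired coding transcripts, and this length was chosen after the orders of the genes under the longest coding transcript and under the median of all coding transcripts were known. The comparison of windows with other transcripts was added after Hnrnpa1's fold change was known. The rule for the printed stretch (a window that Gm10052 holds unchanged and another pseudogene holds with 1 to 5 mismatches) replaced an earlier rule that no window met, and the levels of Gm5643 were added last.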

Additional observations from a re-analysis of the deposited data

How the results depend on the processing

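Adjusting over all genes with a p-value, over genes whose mean reached 10 or 50, and moving the threshold to 0.1 or 0.01 left 0 HNRNP and 0 SR genes called in each tissue. None of the 303 adjusted p-values of single members under these alternatives crossed its threshold, with one choice changed at a time. For Hnrnpa1 in quadriceps the adjusted p was 0.133 against a threshold of 0.1, and 0.0923 and 0.0933 against 0.05 with adjustment over means of 10 and 50, values that lie under 0.1. No member differed between tissues when the brown fat table was read the other way or when adjustment was limited to means of 50 or more in both tables. Family medians of the log2 fold change moved by less than the median SE, although that of SR genes in brown fat changed from 0.03 to -0.02 when SR and SR-related proteins under other symbols were added. The median log2 ratio of level, brown fat over quadriceps, was 0.60 for HNRNP genes in shares of the table, 0.075 without the 50 highest genes and -0.31 relative to the median gene, a scaling chosen after seeing the data. For SR genes it was 1.17, 0.64 and 0.26. These scalings differ only by a constant per table. No paired analysis was possible because the tables hold no values per library, and for the same reason leaving out single replicates was not run. Depth limits Srsf12, with means under 1.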
